A study of Mus musculus with 6 samples.

Results

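Expression of 9 genes, most of which act in the activation of plasminogen or the start of blood clotting, was followed in cultured mouse lung fibroblasts. They are the plasminogen activator genes Plat and Plau, the receptor gene Plaur, the serpin genes Serpinb2, Serpine2 and Serpinf1, the tissue factor gene F3 and the inhibitor genes Tfpi and Tfpi2. They were picked by gene symbol from the 45706 genes of the deposited table, and all 9 were found there. The choice was made with the DKK1 against control results of these libraries known, so what follows on that contrast is a description of where the 9 genes stood in a fit over all genes, and supports nothing beyond it. The cells were grown out of enzyme-digested lungs of wild-type mice. They were kept as controls (3 samples) or given recombinant DKK1 protein of the mouse, 30 ng/ml, over 24 hours (3 samples), and no other allele or agent is named for either group. DKK1 (Dickkopf-1) is a secreted antagonist that holds LRP5 and LRP6, co-receptors for Wnt proteins, and the stated purpose was to see which genes respond to it in such cells.

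Plasmin is the protease that dissolves fibrin and also cuts matrix proteins. It is released from its precursor plasminogen by tissue-type plasminogen activator (Plat) and by urokinase (Plau), which works at the cell surface when held by its receptor uPAR (Plaur). Serpins are protease inhibitors that trap their target in a covalent complex: PAI-2 (Serpinb2) blocks both activators, and protease nexin-1 (Serpine2) blocks thrombin as well as the activators and plasmin. Serpinf1 encodes PEDF, which has the serpin fold but does not inhibit proteases, so the common description of these genes as plasminogen activation and its serpins does not cover it by function. Tissue factor (F3) is the membrane receptor that starts coagulation and with it the deposition of fibrin, TFPI (Tfpi) shuts off the complex that tissue factor forms, and TFPI2 (Tfpi2) is a related Kunitz-type inhibitor, found in the matrix, that acts on plasmin and other proteases. In the lung, fibrin is laid down after injury, and fibroblasts both make these activators and inhibitors and grow into the fibrin.

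The libraries held from 22565917 to 34727102 expected counts. Mitochondrial genes took 1.49% to 1.55% of these in control and 1.63% to 1.70% in DKK1 libraries, with no overlap. All 10 fibroblast markers examined were expressed, with summed levels of 13392 to 15091 CPM (counts scaled to a library's total) in control and 12617 to 14288 CPM in DKK1 libraries. None of the 10 was called without the replicate block, and with it 2 were called higher, among them Dcn (decorin) from 40.6 ± 7.92 to 61.8 ± 5.35 CPM (SD, n = 3 each; edgeR adjusted p = 9.73e-06 with the block, 0.0791 without), and 5 lower, with folds of 0.915 to 0.931 in the unpaired fit. Markers of other lung cells were also present. The 12 macrophage markers summed to 440 to 879 CPM in control and 496 to 930 CPM in DKK1 libraries, most of it from Lyz2, and 7 endothelial markers to 25.9 to 66.3 and 24.1 to 69.3 CPM. The groups did not overlap in the sums of 2 other marker lists. The 6 smooth muscle and pericyte markers summed to 1001 to 1031 CPM in control and 854 to 890 CPM with DKK1, with 1 called lower, the smooth muscle myosin gene Myh11 (336 ± 1.99 to 274 ± 2.27 CPM, SD, n = 3 each; edgeR adjusted p = 0.00387), and 4 called lower with the block. The 6 neutrophil markers summed to 34.4 to 49.9 CPM in control and 66 to 96.2 CPM with DKK1, nearly all of it from Mmp8. The part of these differences in the values of the 9 genes was not tested. Replicate 3 of each group carried the highest sums of macrophage, epithelial, mesothelial and endothelial markers in its group, and these 2 libraries stood apart from the other 4 on the first principal component of expression, which held 32.9% of the variance. The labels number the samples 1 to 3 in each group and do not say what a number shares. Same-numbered samples departed from their group means in the same direction, the correlation over genes being 0.230, 0.274 or 0.405. Values from a fit with the replicate number as a block are therefore given where they change a call.

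In control cells the 9 genes spanned a wide range of levels, compared here as CPM per kilobase of transcript, using the mean length of a gene's annotated transcripts. F3 stood highest, at 419 ± 31.3 CPM per kilobase (SD, n = 3 control libraries), above 98.5% of 14616 tested genes with a known length. Serpinf1 followed at 199 ± 27.9 CPM per kilobase. Plaur, at 75.3 ± 7.21 CPM per kilobase, came above Plau at 62.4 ± 4.79 and Tfpi at 59.5 ± 1.22. The ranges of Plau and Tfpi over the control libraries overlapped, so at this length these neighbours did not differ beyond their spread; no other neighbours in the order overlapped. Serpine2 was measured at 44.9 ± 5.17 CPM per kilobase, Tfpi2 at 14.9 ± 1.27 and Plat at 11.5 ± 0.302. Serpinb2 was the lowest, at 0.905 ± 0.403 CPM per kilobase, above 16.3% of tested genes. The precursor gene Plg had 0 counts in every library. With the longest annotated transcript as the length, Tfpi2 and Plat changed places, Plau and Tfpi (35.7 ± 0.733 CPM per kilobase) no longer overlapped, and the control ranges of Serpinf1 (89.8 ± 12.6 CPM per kilobase) and Plaur overlapped, while the other places in the order were kept.

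**Figure D1:**
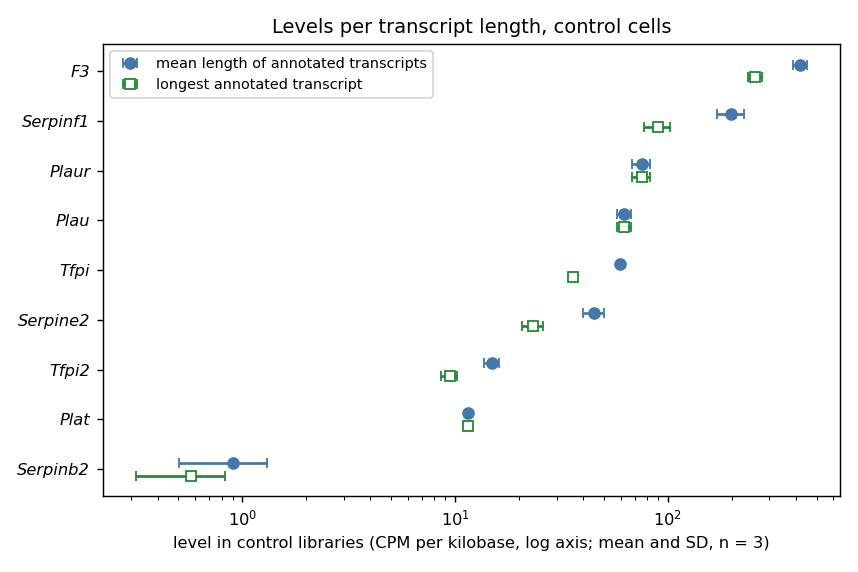
Level of the 9 genes in the 3 control libraries, as CPM per kilobase of transcript on a log axis (points, mean; bars, SD), with the mean length of annotated transcripts (filled circles) or the longest transcript (open squares). F3 is the highest of the 9 at 419 CPM per kilobase and Serpinb2 the lowest at 0.905.

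The genes lie on 8 chromosomes, with the only shared chromosome being that of Serpinb2 and Serpine2. In GRCm38, the build named in the submitters' processing notes, GENCODE M21 places Serpinb2 at chr1:107511423-107535478 on the plus strand and Serpine2 at chr1:79794197-79861180 on the minus strand. F3 lies at chr3:121723537-121735048, Plau at chr14:20836660-20843385, Plat at chr8:22757727-22782844 and Plaur at chr7:24462484-24475968, all on the plus strand. Serpinf1 at chr11:75409769-75422701, Tfpi at chr2:84432855-84476775 and Tfpi2 at chr6:3962595-3988919 are on the minus strand. All are protein-coding, and the expected counts of all 9 were whole in all 6 libraries. Serpinb2 is the only one that overlaps another annotated gene, Serpinb10, with which it shares exons on the same strand; Serpinb10 had at most 1 count in any library.

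Promoter sequences from RefSeq (build GRCm38.p6) matched 7 of the 9 genes. The 250 bases upstream of the start nearest the annotated gene start were searched for 4 motifs. These were the AP-1 site TGANTCA, which reads the same on both strands, the kappaB site and the TCF/LEF site CTTTGAT on both strands, and the TATA box TATAAA on the gene's own strand only. AP-1 is the dimer of Fos and Jun proteins, kappaB sites are bound by NF-kB, and TCF/LEF factors carry the Wnt signal to DNA. The AP-1 letters were found in 3 of the 7 genes, Serpinb2, Plaur and F3, against 6.75% of 32851 promoter windows of the same length. The kappaB and TCF/LEF letters were found in none of the 7 windows, against 7.25% and 3.21% of all windows, and the TATA letters in Serpinb2 alone, against 7.59%. With only 7 windows at such shares, a count of 0 is not read as a result. The only Serpine2 window lies at a start 2515 bases from the annotated one, so the bases before its annotated start were not searched. RefSeq gives some of these genes more than 1 start. Over all 11 windows of the 7 genes 5 held AP-1 letters, the other 2 being a second window of Serpinb2 that holds the same site and a Tfpi2 window at a start 20544 bases from the annotated one, with TGAATCA from 77 bases before it. A match of letters is a description of the window and not a bound site. The 3 windows with AP-1 letters are shown because Serpinb2 had the largest change of the 9 genes, F3 the highest level, and Plaur a fitted change below 0; each is printed 5′ to 3′ on the plus strand, and capitals mark AP-1 and TATA letters.
Serpinb2, chr1:107511173-107511422: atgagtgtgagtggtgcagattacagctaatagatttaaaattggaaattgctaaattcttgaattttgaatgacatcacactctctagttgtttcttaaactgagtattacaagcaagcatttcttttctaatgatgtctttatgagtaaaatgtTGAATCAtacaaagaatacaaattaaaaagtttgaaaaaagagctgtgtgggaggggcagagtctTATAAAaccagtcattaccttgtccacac
F3, chr3:121723287-121723536: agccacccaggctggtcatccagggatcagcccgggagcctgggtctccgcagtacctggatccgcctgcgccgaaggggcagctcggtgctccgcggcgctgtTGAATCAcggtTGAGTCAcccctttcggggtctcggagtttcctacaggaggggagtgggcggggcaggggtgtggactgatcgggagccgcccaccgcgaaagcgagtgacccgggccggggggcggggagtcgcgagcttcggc
Plaur, chr7:24462233-24462482: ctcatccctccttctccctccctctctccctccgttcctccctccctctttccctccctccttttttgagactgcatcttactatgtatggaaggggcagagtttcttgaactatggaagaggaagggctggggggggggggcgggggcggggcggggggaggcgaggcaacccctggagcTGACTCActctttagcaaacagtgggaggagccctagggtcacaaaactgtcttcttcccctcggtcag
In Serpinb2 the AP-1 letters TGAATCA began 94 bases and the TATA letters 29 bases before the start. F3 held 2 matches, TGAATCA from 146 and TGAGTCA from 135 bases before the start, and Plaur held TGACTCA from 69 bases. The windows differed in base composition, with a GC content of 32.4% in Serpinb2, 59.6% in Plaur and 70% in F3.

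With DKK1 the 9 genes did not move as a block. Serpinb2 stood 3.67-fold higher, and the other fitted changes ranged from 0.956-fold for Plaur to 1.31-fold for Tfpi2. In edgeR's quasi-likelihood test of all 14635 genes that passed the filter, with a Benjamini-Hochberg adjusted p under 0.05 as the threshold for a call, 1 of the 9 was called, and it was higher. Of all tested genes 0.895% were called, 0.697% higher and 0.198% lower. All 9 passed the filter on low counts, and their lowest count in any library was 21. With the replicate number as a block 5 of the 9 were called, all higher (Serpinb2, Serpine2, Plau, F3 and Tfpi2), against 4.96% of all tested genes called higher, 4.46% lower and 9.42% in either direction. The median log2 fold change of the 9 was 0.15 without and 0.14 with the block, and over all tested genes -0.00091 and -0.000633. Because this contrast was known when the genes were picked, nothing is read from these counts. In these RNA pools of whole cultures, fewer cells of a type and less RNA per cell cannot be told apart. The labels do not say whether the samples came from separate mice or cultures, so the p-values measure the spread between these samples, which may be technical.

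**Figure D2:**
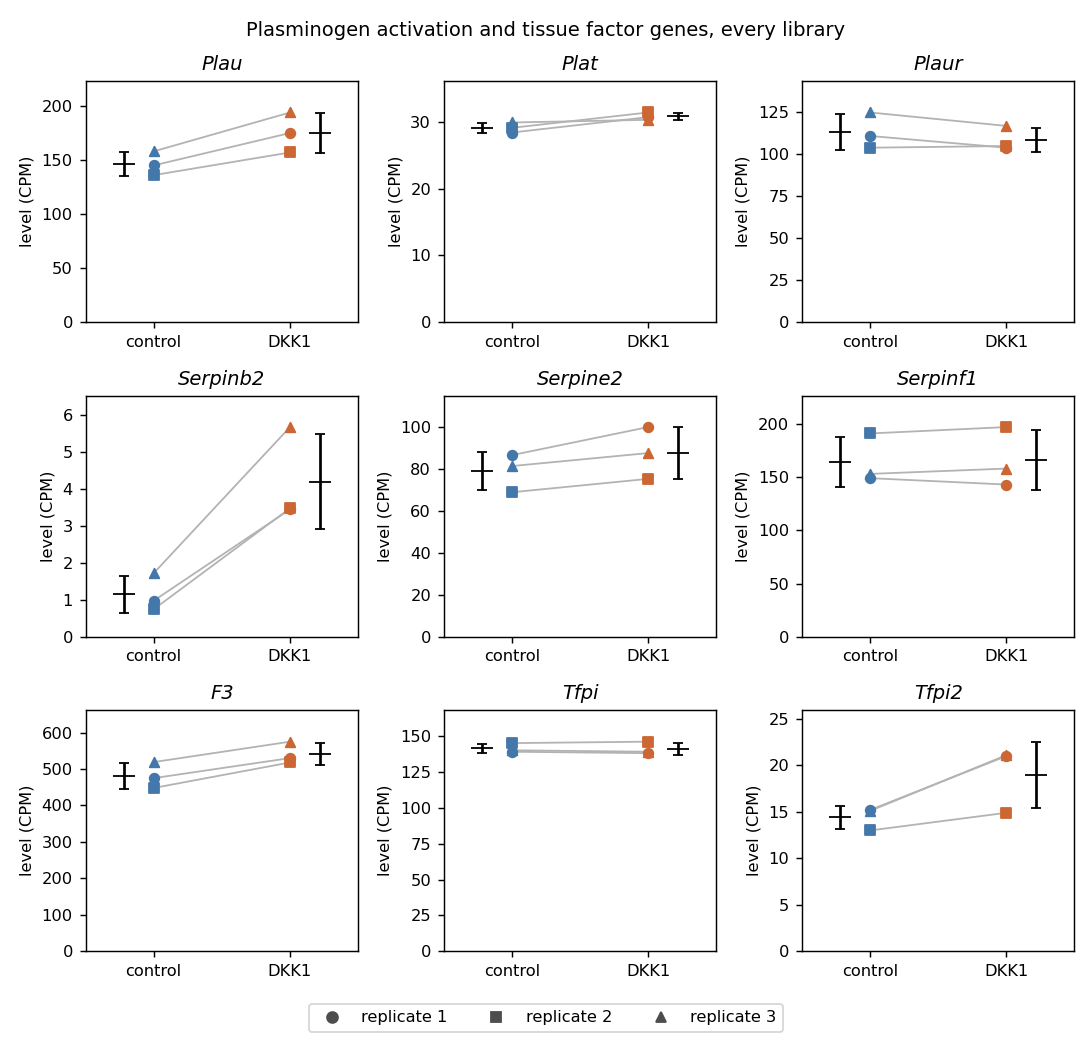
Level of each of the 9 genes in every library, in CPM on linear axes that start at 0; points are libraries, grey lines join samples with the same replicate number, and black bars beside them give the mean and SD of 3. Serpinb2 goes from 0.743 to 1.72 CPM in control to 3.45 to 5.68 CPM with DKK1, while Tfpi stays between 138 and 146 CPM in all 6 libraries.

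Among the activators, urokinase was the more abundant transcript per kilobase and had the larger fitted change. Plau read 145, 136 and 158 CPM in control replicates 1, 2 and 3 and 175, 157 and 194 CPM in the DKK1 replicates. The groups overlapped by a narrow margin, since DKK1 replicate 2 lay under control replicate 3, but in all 3 pairs of equal number the DKK1 sample was higher, as was so for 22.3% of all tested genes. The fitted log2 change was 0.26 ± 0.08 (SE; edgeR adjusted p = 0.242), and 0.25 ± 0.03 (SE; edgeR adjusted p = 2.43e-05) with the replicate block. Differences within pairs were 0.27, 0.22 and 0.29 on the log2 scale, and their SD of 0.04 was smaller than the SD of log2 levels in either group (0.11 in control and 0.15 with DKK1). Plat read 28.4, 29.1 and 29.9 CPM in control and 30.7, 31.4 and 30.3 CPM in DKK1 replicates 1, 2 and 3. Its groups did not overlap, with all 3 DKK1 values higher, as was so for 9.4% of all tested genes (7.14% had all 3 lower), but the change was small and was not called in either fit. Its fitted log2 change was 0.07 ± 0.05 (SE; edgeR adjusted p = 0.648), and 0.08 ± 0.05 with the block (SE; edgeR adjusted p = 0.381). The ratio of Plau to Plat counts within a library was 5.10, 4.65 and 5.27 in control and 5.71, 5.02 and 6.38 with DKK1, higher in all 3 pairs while the groups overlapped.

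The gene of the urokinase receptor had a small fitted change below 0. Plaur read 111, 104 and 125 CPM in control and 104, 105 and 117 CPM in DKK1 replicates 1, 2 and 3. The groups overlapped, with replicate 3 the highest in both, and 1 of the 3 pairs was higher with DKK1. Its fitted log2 change was -0.07 ± 0.07 (SE; edgeR adjusted p = 0.823), and -0.06 ± 0.03 with the block (SE; edgeR adjusted p = 0.292). The ratio of Plau to Plaur counts, which needs no scaling between libraries, was 1.30, 1.31 and 1.26 in control and 1.69, 1.49 and 1.65 in DKK1 replicates 1, 2 and 3. On this ratio every DKK1 library lay above every control library. Both genes were picked with this contrast known, and the share of other gene pairs that part the groups was not computed. Nothing beyond the values of the 2 genes is therefore read from the ratio.

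Of the serpins, PAI-2 had the largest change of the 9 genes and the lowest level. Serpinb2 held 22, 21 and 39 counts in control and 99, 121 and 131 counts in DKK1 replicates 1, 2 and 3, which are 0.975, 0.743 and 1.72 CPM and 3.45, 3.48 and 5.68 CPM. Every DKK1 library lay above every control library, and replicate 3 was the highest in both groups. The fitted log2 change was 1.87 ± 0.33 (SE; edgeR adjusted p = 0.0456), larger in size than that of 99.9% of tested genes, and 1.90 ± 0.18 with the block (SE; edgeR adjusted p = 1.61e-05). The unpaired call was lost in 5 of the 6 fits that each left out 1 library: without control replicate 1 the edgeR adjusted p was 0.186, without control replicate 2 0.162, and without DKK1 replicates 1, 2 and 3 it was 0.131, 0.101 and 0.0784. The fold stayed between 1.61 and 2.27 on the log2 scale in all 6. Without replicate 3 of both groups the log2 fold change was 2.02 (edgeR adjusted p = 0.013).

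Macrophages also express Serpinb2, and some markers of macrophages and neutrophils differed between the groups as well. The monocyte co-receptor gene Cd14 was called higher, from 9.31 ± 0.222 to 16.8 ± 1.18 CPM (SD, n = 3 each; edgeR adjusted p = 0.0028). With the block 4 of the 12 macrophage markers were called higher and 3 lower: the integrin gene Itgam went from 14.9 ± 4.94 to 31.5 ± 10.2 CPM (SD, n = 3 each; edgeR adjusted p = 7.23e-08 with the block, 0.136 without) and the scavenger receptor gene Marco went from 6.38 ± 3.64 to 20.1 ± 8.01 CPM (edgeR adjusted p = 2.51e-07 with the block, 0.116 without), while the complement gene C1qa went from 8.32 ± 3.19 to 3.59 ± 2.80 CPM (edgeR adjusted p = 0.000141 with the block, 0.379 without). Without DKK1 replicate 3 the log2 change of C1qa moved from -1.26 to -2.07 (edgeR adjusted p = 0.0378), and without control replicate 3 that of Marco moved from 1.65 to 2.19 (edgeR adjusted p = 0.0309). Lyz2, the most abundant of the 12, had a log2 fold change of 0.06 and was not called in either fit (edgeR adjusted p = 0.978, and 0.0914 with the block). Also called with the block were Adgre1, higher (6.38 ± 2.67 to 9.35 ± 4.11 CPM, edgeR adjusted p = 0.00179), and Csf1r and Mrc1, lower. Csf1r went from 24.4 ± 8.94 to 20.2 ± 4.36 CPM and Mrc1 from 20.2 ± 7.56 to 14.9 ± 5.52 CPM (edgeR adjusted p = 0.0364 and 0.000384). Without the block none of Adgre1, Csf1r and Mrc1 was called (edgeR adjusted p = 0.665, 0.756 and 0.667). Ptprc, Cd68, Tyrobp and Fcer1g, like Lyz2, were called in neither fit. None of the 12 was at 0. Of the 6 neutrophil markers 2 were tested, and neither was called in the unpaired fit of all 6 libraries and both were called higher with the block. The calprotectin gene S100a8 went from 1.16 ± 0.462 to 3.27 ± 0.737 CPM (SD, n = 3 each; edgeR adjusted p = 0.000308 with the block, 0.0705 without) and the collagenase gene Mmp8 from 39.6 ± 8.41 to 72.9 ± 17.3 CPM (SD, n = 3 each; edgeR adjusted p = 2.62e-08 with the block, 0.0869 without), both with no overlap of the groups, while the neutrophil markers Ly6g and Retnlg were at 0 in every library. S100a8 was also called without control replicate 3 (log2 change 1.83; edgeR adjusted p = 0.0358). Without the low-count filter the unpaired edgeR fit called S100a8, Mmp8, Itgam and Marco higher (edgeR adjusted p = 0.00354, 0.000494, 0.00183 and 0.00109). C1qa was not called there (edgeR adjusted p = 0.0802). DESeq2 called S100a8 (DESeq2 adjusted p = 0.00127) but not Mmp8, Itgam, Marco or C1qa (DESeq2 adjusted p = 0.0512, 0.106, 0.0822 and 0.764). Without replicate 3 of both groups, where Serpinb2 was called, Cd14, Itgam, Marco and S100a8 were called higher (log2 changes 0.846, 1.08, 1.83 and 1.66; edgeR adjusted p = 0.0153, 0.00416, 0.00416 and 0.0421) and C1qa lower (-1.73; edgeR adjusted p = 0.0183), and Mmp8 was not called (0.86; edgeR adjusted p = 0.121). The part of these markers in the change of Serpinb2 was not tested.

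Protease nexin-1 differed more between replicate numbers than between treatments. Serpine2 read 86.6, 68.9 and 81.4 CPM in control and 100, 75.3 and 87.6 CPM in DKK1 replicates 1, 2 and 3. The groups overlapped, replicate 1 was the highest and replicate 2 the lowest in both, and the DKK1 sample was higher in all 3 pairs. The fitted log2 change was 0.15 ± 0.11 (SE; edgeR adjusted p = 0.719), and 0.14 ± 0.03 with the block (SE; edgeR adjusted p = 0.0122). Serpinf1, which encodes PEDF, read 149, 191 and 153 CPM in control and 143, 197 and 158 CPM with DKK1. Its replicate 2 was the highest and replicate 1 the lowest in both groups, and the differences within pairs were -0.07, 0.04 and 0.05 on the log2 scale. The fitted log2 fold change of Serpinf1 was 0.01 ± 0.13 (SE; edgeR adjusted p = 0.994), and with the block its SE was 0.03 (edgeR adjusted p = 0.955).

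**Figure D3:**
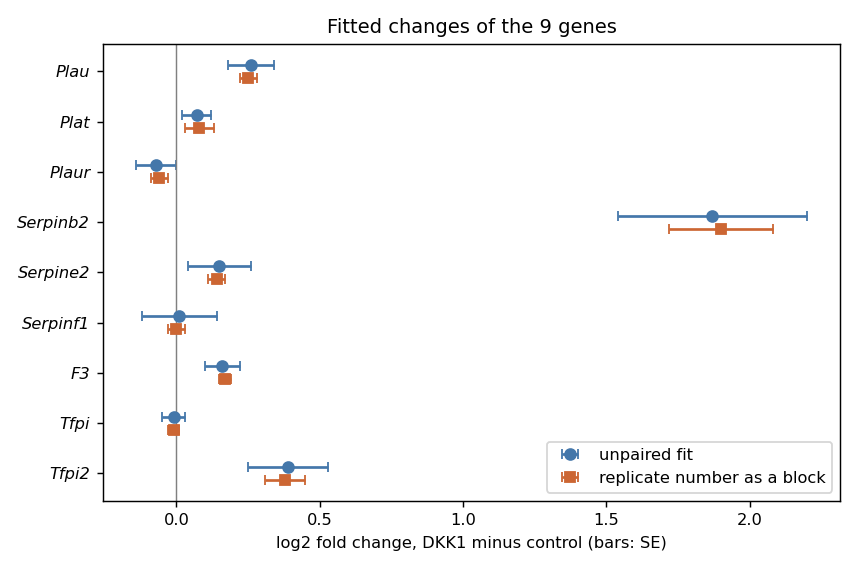
Fitted log2 fold change of each of the 9 genes, DKK1 minus control, with its standard error as bars, from the unpaired fit (circles) and the fit with the replicate number as a block (squares). The estimates hardly differ between the fits, as for Plau at 0.26 and 0.25, while the standard errors shrink with the block, as for Serpine2 from 0.11 to 0.03.

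Tissue factor was the most abundant of the 9 and higher with DKK1 in each pair. F3 read 475, 448 and 519 CPM in control and 530, 518 and 575 CPM in DKK1 replicates 1, 2 and 3. The groups touched, since control replicate 3 lay just above DKK1 replicate 2, and replicate 3 was the highest in both. The fitted log2 change was 0.16 ± 0.06 (SE; edgeR adjusted p = 0.312), and 0.17 ± 0.02 with the block (SE; edgeR adjusted p = 9.76e-05). Its inhibitor gene Tfpi read 139, 145 and 140 CPM in control and 138, 146 and 139 CPM with DKK1, the smallest spread over control libraries of the 9 genes relative to the mean, and had a fitted log2 change of -0.01 ± 0.04 (SE; edgeR adjusted p = 0.97; SE 0.02 under the block, edgeR adjusted p = 0.893). The ratio of F3 to Tfpi counts was 3.41, 3.09 and 3.70 in control and 3.84, 3.54 and 4.14 with DKK1. It was higher with DKK1 in 3 of 3 pairs, while the ranges of the groups overlapped.

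The second Kunitz-type inhibitor gene had a larger fitted change than Tfpi. Tfpi2 read 15.2, 13 and 15.1 CPM in control and 21, 14.9 and 21.1 CPM in DKK1 replicates 1, 2 and 3. Replicate 2 was the lowest in both groups, and its DKK1 value lay inside the control range. The fitted log2 change was 0.39 ± 0.14 (SE; edgeR adjusted p = 0.331), and 0.38 ± 0.07 with the block (SE; edgeR adjusted p = 0.00413). The difference within pair 2, at 0.19 on the log2 scale, was under those of pairs 1 and 3, at 0.47 and 0.48.

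**Figure D4:**
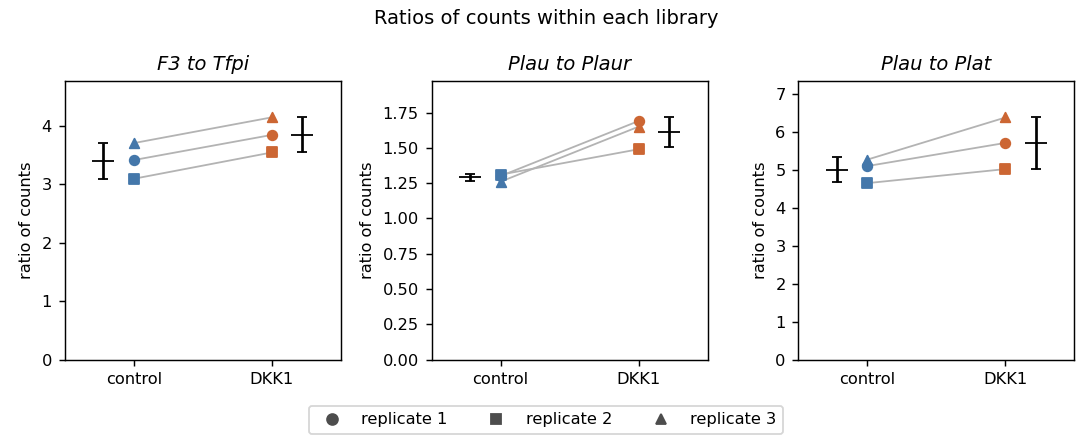
Ratio of the counts of 2 genes within each library, for F3 to Tfpi, Plau to Plaur and Plau to Plat, on linear axes that start at 0; lines join samples with the same replicate number and bars give the mean and SD of 3. All 3 ratios are higher with DKK1 in every pair, and the groups are apart for Plau to Plaur alone.

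The other genes of the plasminogen system were examined from a list of 30 that held no serpin, of which 16 passed the filter on low counts. Of these, 1 was called higher and 0 lower, with a median log2 fold change of -0.03. It was Hgf, the gene of hepatocyte growth factor, which is built like plasminogen but is not a protease. Hgf rose, reading 13.4 ± 1.23 CPM in control and 23.6 ± 1.88 CPM with DKK1 (SD over 3 libraries), for a fitted log2 change of 0.81 ± 0.09 (SE; edgeR adjusted p = 0.00689). In no library was its expected count whole, and it shares exons with Gm43489, so its value is uncertain. With the block Hgf remained called and 2 more were called, both lower: Vldlr, which encodes a receptor that takes up protease and serpin complexes, with a fitted log2 change of -0.28 ± 0.03 (SE; edgeR adjusted p = 0.000128), and Anxa2, which encodes a surface docking protein for plasminogen, with -0.09 ± 0.02 (SE; edgeR adjusted p = 0.0286). The 3 genes of the list with the most CPM, a measure not divided by length, were not called in either fit. Thbs1 (thrombospondin-1) had a log2 fold change of -0.04 (SE 0.05), Itgb1 (integrin beta-1) -0.05 (SE 0.03), and Lrp1, the receptor that clears the activators bound to their inhibitors, -0.05 (SE 0.06), with edgeR adjusted p-values of 0.826, 0.6 and 0.85. Anxa2 overlaps Gm16144, Thbs1 overlaps Gm29233 and Lrp1 overlaps Gm16217 on the opposite strand, and whether counting used strand is not given in the sources used here.

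None of the 18 tested serpin genes outside the 9 was called by edgeR in the unpaired fit, and DESeq2 called 1. An unadjusted edgeR p under 0.05 was found for 4 of the 18, and for 1544 of all 14635 tested genes. All 65 other serpin genes of the table were considered, of which 28 had no count in any library, and the median log2 fold change of the 18 was 0.13. Of the collagen chaperone Serpinh1, Serpinb6a and the C1 inhibitor gene Serping1, none was called in the unpaired fit (log2 fold changes -0.06, 0.05 and 0.17; edgeR adjusted p-values 0.614, 0.747 and 0.679); Serpinb6a shares exons with genes on the opposite strand. With the block 6 of the 18 serpin genes were called higher and 2 lower, against 4.96% and 4.46% of all tested genes. Serpina3g had the smallest adjusted p of these, at a fitted log2 change of 0.83 ± 0.08 (SE; edgeR adjusted p = 1.23e-05), and its expected counts were not whole in 3 of 6 libraries; it belongs to a family of near-identical copies, so its value is uncertain. Serping1 was among those called higher (0.17 ± 0.03, SE; edgeR adjusted p = 0.00176) and Serpinh1 among those called lower (-0.06 ± 0.02, SE; edgeR adjusted p = 0.0333).

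The list of 30 other coagulation and anticoagulant genes had 18 tested genes and a median log2 fold change of -0.01, with 1 called higher and 0 lower. Thbd, which encodes thrombomodulin, the receptor that turns thrombin from clotting to activating protein C, rose, reading 260 ± 9.18 CPM in control and 331 ± 24.6 CPM with DKK1 (SD over 3 libraries), for a fitted log2 change of 0.34 ± 0.06 (SE; edgeR adjusted p = 0.0335). It remained called in 1 of the 6 fits that each left out 1 library, the one without DKK1 replicate 3; in the other 5 the edgeR adjusted p lay between 0.0908 and 0.148. With the block 4 of the 18 genes were called higher and 5 lower, against 4.96% and 4.46% of all tested genes. Those higher included Thbd, the protein S gene Pros1 (log2 change 0.25 ± 0.03, SE; edgeR adjusted p = 3.07e-05) and Procr, the receptor for protein C (log2 change 0.22 ± 0.05, SE; edgeR adjusted p = 0.00917); without the block Procr had an edgeR adjusted p of 0.329. Those lower included the thrombin receptor gene F2r (log2 change -0.21 ± 0.02, SE; edgeR adjusted p = 4.62e-05; without the block 0.179), Gas6, which encodes a relative of protein S (log2 change -0.34 ± 0.04, SE; edgeR adjusted p = 2.98e-05), and Anxa5 and Tgm2 (-0.10 and -0.14, edgeR adjusted p = 0.00835 and 0.000627). Gas6 and Tgm2 share exons with genes on the opposite strand.

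**Figure D5:**
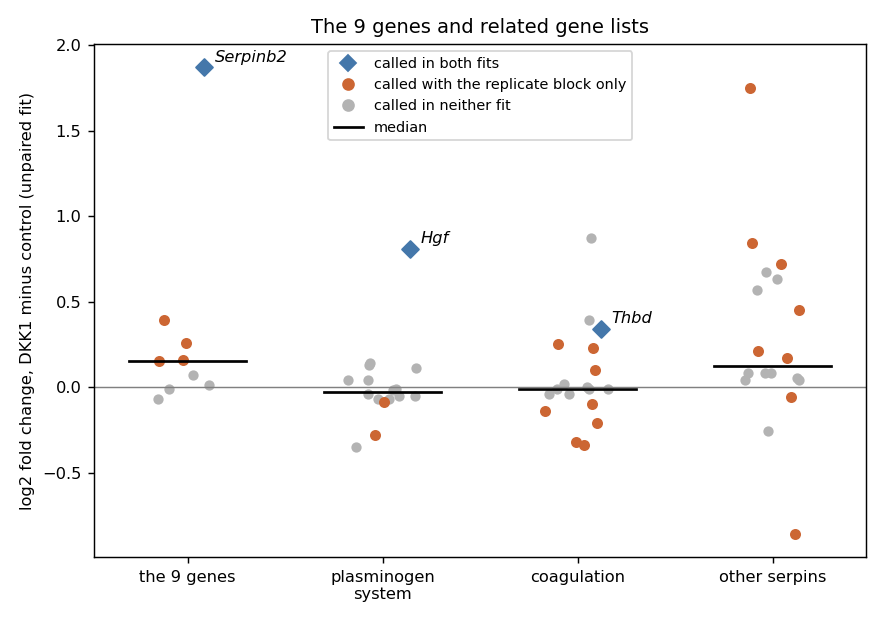
Log2 fold change of each tested gene, DKK1 minus control in the unpaired fit, for the 9 genes and for the other plasminogen system genes (16), coagulation genes (18) and other serpins (18); diamonds were called in both fits, orange circles only with the replicate block, grey circles in neither, and lines give medians. Serpinb2, Hgf and Thbd are the genes called in both fits, at 1.87, 0.81 and 0.34.

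The pattern of Serpinb2 over the 6 libraries was compared with that of 13006 other tested genes whose mean reached 1 CPM. The closest on log2 CPM were Fahd1 (Pearson r = 0.998), Nmnat1 (r = 0.995) and Vegfc (r = 0.995), given as a description over 6 libraries that share the 2 treatment groups and the replicate numbers. Their changes were far smaller than that of Serpinb2, with log2 fold changes of 0.24, 0.21 and 0.24.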

How the data were processed

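RNA of 3 control and 3 DKK1-treated samples was sequenced. The values the authors deposited are RSEM expected counts per gene, unscaled; per the submitters' processing notes STAR, RSEM and edgeR 4.2.1 were used with GRCm38 (mm10). The annotation release, strandedness and filters are not given in the sources used here. Symbols were found for 45143 of 45706 identifiers.

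Rounded expected counts were analysed with edgeR 4.0.16 under R 4.3.3: filterByExpr with a minimum count of 10, TMM factors, glmQLFit and glmQLFTest (two-sided) with group as the only term, Benjamini-Hochberg adjustment over all 14635 tested genes and a threshold of 0.05. Standard errors were obtained from the size of the fitted log2 change over the root of the F statistic. CPM uses each library's total, and 3 counts equal 0.0864 to 0.133 CPM. This level is given for scale and was not used as a filter. Expression per kilobase divides CPM by the length of transcripts in GENCODE M21, which holds 98.7% of the table's transcript identifiers. On simulated counts with known changes for this comparison (14654 genes tested), 100% of genes with a log2 change of 1 and 86% of those with 0.5 were recovered, with 7 false calls. The simulation gave every gene the same dispersion and no replicate effect, and changed only genes above a count limit. It therefore does not show what is recovered among genes with fewer counts or a wider spread between libraries.

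The 9 genes, the lists, the markers and the ratios were chosen with earlier results of these data known. Genes named outside the 9 are those called in the unpaired fit, the 3 of each list with the highest mean CPM, Plg, Lrp1, Serping1, F2r and Procr, except 1 gene that is not reported here; Vldlr, Anxa2, Pros1, Gas6, Serpina3g, Cd14, Marco, C1qa, Lyz2, Itgam, S100a8, Mmp8, Myh11, Dcn, Ly6g and Retnlg were added after their values were seen, Serpinb10 for its overlap with Serpinb2, and Fahd1, Nmnat1 and Vegfc for their likeness to Serpinb2. The numbers 1 to 3 in the sample titles were taken to pair the samples because each same-numbered pair correlated above 0.1 (0.274, 0.230 and 0.405). Alternatives were DESeq2 size factors, library totals, no low-count filter, the replicate block, DESeq2 1.42.0, leaving out each library, the longest transcript and, chosen after seeing the data, leaving out replicate 3 of both groups.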

Additional observations from a re-analysis of the deposited data

How the results depend on the processing

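The 131 calls over all genes (77.9% higher) became 329 without a low-count filter, 289 with DESeq2 and 1379 with the replicate block (52.6% higher), and 36 to 139 when 1 library was left out. Among the 9 genes the 1 call became 2 without a low-count filter (Serpinb2 and Plau), 5 with the replicate block, and 0 to 1 when 1 library was left out. With the block the plasminogen list had 3 calls among 16 tested genes, the coagulation list 9 among 18 and the other serpins 8 among 18. Of all tested genes 9.42% were called with the block. Without a low-count filter and with DESeq2 the coagulation list had 4 (Thbd, Pros1, F2r and Gas6) and the other serpins 1 (Serpina3g), which was also the 1 serpin called without replicate 3 of both groups. The coagulation list had 0 to 1 calls when 1 library was left out; Hgf was called in all 6 of these fits. The causes were not tested. DESeq2 size factors and library totals changed no call or sign of the 37 tested genes followed singly.

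Signs changed for named genes called in neither fit. Without replicate 3 of both groups Serpinf1 had a log2 fold change of -0.01. When 1 library was left out the log2 fold changes ranged from -0.141 to 0.133 for Serpinf1, -0.125 to 0.00349 for Plaur, -0.04 to 0.01 for Tfpi, -0.102 to 0.0214 for Lrp1 and -0.294 to 0.419 for Lyz2. With the longest transcript as the length, control levels were 257 CPM per kilobase for F3, 89.8 for Serpinf1, 35.7 for Tfpi, 23.3 for Serpine2 and 9.44 for Tfpi2. Serpinb2 rests on 21 to 39 counts in control libraries.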
